A study of Mus musculus with 3 samples.

Results

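Mouse bone marrow-derived dendritic cells (BMDCs) kept beside ID8 tumour cells were compared with BMDCs kept beside CT-26 tumour cells, over every mouse microRNA (miRNA) probe that gave signal in both co-cultures. A probe entered the comparison when its intensity after subtraction of the local background, called corrected intensity here, was at least 50 units, the floor used throughout, on both arrays. Of 579 probes with a mouse name, among 1408 probes in all, 177 met this rule, and they represent 175 miRNAs. A further 16 mouse probes reached 50 units on 1 of the 2 arrays and give bounds, and 386 stayed under 50 units on both.

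The ID8 group was BMDCs held for 24 h in a transwell plate with ID8, a mouse tumour line derived from ovarian surface epithelium. The CT-26 group was BMDCs held for the same time in the same kind of plate with CT-26, a line from a mouse carcinoma of the colon. Both co-cultures used medium with 3% serum, and the mouse strain of the BMDCs is not given in the sources used here. A control group of BMDCs, with no tumour cells and no culture conditions named, was read on 1 array of the same kind and is set beside the comparison for orientation. Each group had 1 array and no replicate, so no test could be made. Every ratio describes a pair of arrays, and the number of arrays limits the precision.

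Dendritic cells take up antigen and present it to T cells, and tumour-derived signals are known to alter their maturation. A miRNA is cut from a hairpin precursor as a duplex. The strand that enters the Argonaute protein (the guide) is usually the more abundant, while its partner (the passenger strand, marked with an asterisk in the older naming used by the array) is usually degraded. Bases 2 to 8 of the mature strand, the seed, are the main determinant of which messenger RNAs are repressed.

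The sequences below are those of the miRNAs that differed at least 2-fold between the co-cultures and were found in the RefSeq table, each written 5′ to 3′ with its seed in capitals. They were taken from RefSeq annotation of assembly GRCm38.p6. The miRNAs 2-fold higher in the ID8 co-culture come first and those 2-fold lower after them. miR-574-3p, miR-21 and miR-290-3p, which were short of 2-fold, stand after their partner strands because the arms gave different ratios. Both arms of miR-142, neither of them past 2-fold, stand last because their ratios were opposite in sign.
miR-574-5p: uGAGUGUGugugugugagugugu
miR-574-3p: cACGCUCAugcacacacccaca
miR-483: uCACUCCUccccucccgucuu
miR-678: gUCUCGGUgcaaggacuggagg
miR-194: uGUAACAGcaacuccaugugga
miR-129-5p: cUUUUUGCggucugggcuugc
miR-103: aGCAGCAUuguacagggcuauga
miR-107: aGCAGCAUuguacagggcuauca
miR-675-5p: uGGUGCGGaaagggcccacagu
miR-21*: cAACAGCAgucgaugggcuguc
miR-21: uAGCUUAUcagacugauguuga
miR-290-5p: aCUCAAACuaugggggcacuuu
miR-290-3p: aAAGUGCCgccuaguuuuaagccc
miR-711: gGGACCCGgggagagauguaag
miR-337-3p: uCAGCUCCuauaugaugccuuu
miR-142-5p: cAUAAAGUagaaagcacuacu
miR-142-3p: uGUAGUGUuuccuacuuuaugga

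Levels are the authors' normalized intensities, in which each array was divided by 1 constant, and ratios are log2 of the level in the ID8 co-culture over the level in the CT-26 co-culture. The 2 profiles were close. Over the 175 miRNAs the log2 levels had a Pearson correlation of 0.964, given as a description over probes that share the same 2 arrays. The median log2 ratio was -0.01, with quartiles of -0.25 and 0.21 and extremes of -2.06 and 2.28, and 146 of the 175 miRNAs (83.4%) lay within 1.5-fold. In 3 groups of near equal size by level, the interquartile range of the log2 ratio was 0.605 among the dimmest miRNAs, 0.476 in the middle group and 0.331 among the brightest. The SD over miRNAs did not follow that order, at 0.549, 0.569 and 0.525, and the share within 1.5-fold was 84.7%, 82.8% and 82.8%. In a bulk sample, fewer cells that make a miRNA and less of it per cell cannot be told apart.

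At 2-fold, 4 of the 175 miRNAs were higher in the ID8 co-culture (2.29%) and 11 were lower (6.29%), 15 in all (8.57%). At 1.5-fold the counts were 11 higher (6.29%) and 18 lower (10.3%), 16.6% together, and at 4-fold they were 1 and 1 (0.571% each, 1.14% together). With no scaling between the arrays, which raises every log2 ratio by 0.25, the 2-fold counts became 7 higher and 9 lower. The 163 probes with no name that reached 50 units on both arrays, whose targets are not identified, gave 2 higher (1.23%) and 8 lower (4.91%), or 6.13% together. Both sets of probes therefore held more lower than higher ratios past 2-fold at the deposited scaling.

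The gene of miR-574-5p, a strand rich in UG repeats, lies at chr5:64970328-64970350 on the plus strand, within the annotated spans of Fam114a1 and Tlr6. This miRNA had the highest ratio. Its level was 1.09 in the ID8 co-culture, 0.223 in the CT-26 co-culture and 1.86 in the control. The CT-26 value, from 74.75 corrected units against 432.75 in the ID8 co-culture, stood apart below the other two, and the log2 ratio was 2.28 (4.87-fold higher).
miR-483, encoded in the insulin-like growth factor gene Igf2 at chr7:142654932-142654952 on the minus strand, was among the 10 brightest miRNAs of the comparison. Its level was 37.7 in the ID8 co-culture, 12.6 in the CT-26 co-culture and 41.2 in the control, and the log2 ratio was 1.58 (2.99-fold higher).
miR-678, which lies within the span of the arginine methyltransferase gene Prmt2 at chr10:76207333-76207354 on the minus strand, stood at 5.62 in the ID8 co-culture, 1.89 in the CT-26 co-culture and 5.43 in the control, a log2 ratio of 1.57 (2.98-fold higher). miR-466b-5p, of the large repeat cluster inside Sfmbt2, stood at 1.49, 0.561 and 1.66 on the same arrays, a log2 ratio of 1.41 (2.66-fold higher). In each of these 4 miRNAs the CT-26 level was the lowest of the 3 arrays.

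The probes of these 4 miRNAs all lay in row 7 of the 8 rows into which the file divides the array. Ratios in that row ran high as a whole. Its 21 measured mouse probes had a median log2 ratio of 0.51, with 19 above 0 and 8 past 1.5-fold higher (38.1%), while the 156 probes of the other rows had a median of -0.03, with 67 above 0 and 4 past 1.5-fold higher (2.56%). By row, the median over mouse probes ran from -0.21 (row 3) to 0.05 (row 5) in the other rows. None of the 156 was 2-fold higher and none of the 21 was 2-fold lower. Probes with no name had a median of 0.47 over 21 in row 7, 20 of them above 0, and of -0.06 over 142 in the other rows, and both that passed 2-fold higher were in row 7. For these probes row 8 was also high, with a median of 0.39 and 10 of 13 above 0, while mouse probes in row 8 had a median of -0.19. The 5 Hy3 spots of row 7 had a median of 0.03, against -0.16 for the 35 in the other rows. The small nucleolar RNA SNORD2, also in row 7, had a log2 ratio of 0.70. SNORD3@ and the U6-snRNA-2 probe, which lie in other rows, had -0.10 and 0.20. A second U6 probe, U6-snRNA-1, lies in row 7. It read 116 units in the ID8 co-culture, 36.5 in the CT-26 co-culture, under the floor, and 61.5 in the control. U6-snRNA-2 is the U6 probe used for scaling below. The offset was larger in the CT-26 ratios to the control than in the ID8 ones. The 19 mouse probes of row 7 measured on all 3 arrays had a median log2 ratio to the control of -0.17 for ID8 and -0.78 for CT-26, against 0.04 and 0.16 for the 140 probes of the other rows. The part of array position in the 4 higher miRNAs was not tested. After each row's own median over all probes but the Hy3 marker spots was subtracted, the log2 ratio was 1.78 for miR-574-5p, 1.08 for miR-483, 1.07 for miR-678 and 0.91 for miR-466b-5p, so 3 of the 4 stayed past 2-fold.

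The 11 lower miRNAs were spread over 6 of the other array rows and none lay in row 7. miR-194, which is typical of intestinal and liver epithelium, had the lowest ratio, with a level of 0.134 in the ID8 co-culture, 0.558 in the CT-26 co-culture and 0.159 in the control. That is a log2 ratio of -2.06 (4.17-fold lower), and it rests on dim spots of 53.25, 187 and 51.75 corrected units, of which the first and last barely passed 50. Of the 8 negative control probes, the brightest read 48.5, 52 and 59 units on the same arrays, close to miR-194 in the ID8 co-culture and the control. miR-194 is made with miR-192 or miR-215 from shared transcripts, and their probes stayed under 50 units on every array, at 9.25 and 7.25 units for miR-192 and at 16 and 16.5 units for miR-215 in the ID8 and CT-26 co-cultures.

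miR-103 and miR-107 are paralogs encoded in introns of the pantothenate kinase genes Pank2, Pank3 and Pank1, and are known to restrain insulin signalling and Dicer. Their mature strands, printed above, differ at 1 of 23 bases, G22C counted from the 5′ end of miR-103, and share the seed GCAGCAU. The level of miR-103 was 0.232 in the ID8 co-culture, 0.629 in the CT-26 co-culture and 0.232 in the control, a log2 ratio of -1.44 (2.71-fold lower). The level of miR-107 was 0.165 in the ID8 co-culture, 0.424 in the CT-26 co-culture and 0.192 in the control, a log2 ratio of -1.36 (2.57-fold lower). The pair had like ratios, and since the probes may take up each other's target they are not separate evidence. Their corrected intensities were between 62.5 and 210.75 units.

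miR-129-5p, abundant in brain, stood at 2.69 in the ID8 co-culture, 7.30 in the CT-26 co-culture and 2.10 in the control, a log2 ratio of -1.44. Its partner arm miR-129-3p did not pass 2.75 units on any array. miR-1, the miRNA of heart and skeletal muscle, stood at 2.84, 5.91 and 1.73 on the same arrays, a log2 ratio of -1.06, while miR-133a, made from the same transcripts, read at most 1.5 units. miR-290-5p, of the cluster characteristic of embryonic stem cells, stood at 0.679, 1.67 and 0.657, a log2 ratio of -1.30, and 11 of the 14 miRNAs of that cluster on the array were not measured in both co-cultures. For miR-129-5p and miR-1, a partner made with them was therefore far under the floor where their own probes were bright.

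miR-675-5p is cut from the imprinted non-coding RNA H19, at chr7:142577112-142577133 on the minus strand, and lies near miR-483 in the Igf2-H19 domain. It stood at 0.653 in the ID8 co-culture, 1.67 in the CT-26 co-culture and 0.693 in the control, a log2 ratio of -1.36, opposite in sign to miR-483 at 1.58. The other arms, miR-675-3p at 5.75 and 5.5 units and miR-483* at 29 and 21.25 units in the ID8 and CT-26 co-cultures, were under the floor, so the locus is represented by 1 strand of each miRNA.

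The remaining lower miRNAs were miR-21* (-1.30), miR-711 (-1.29), miR-801 (-1.27) and miR-337-3p (-1.06). The level of miR-21*, the passenger strand of miR-21, was 3.19 in the ID8 co-culture, 7.85 in the CT-26 co-culture and 2.63 in the control. miR-711, within the collagen gene Col7a1, stood at 0.225, 0.550 and 0.223 on the same arrays, and miR-801 at 4.36, 10.6 and 5.19. miR-337-3p, from the imprinted Dlk1-Dio3 domain, stood at 0.579, 1.21 and 0.618. In all 11, the CT-26 level was the highest of the 3 arrays.

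The control array shows how the pairs lie. For the 4 higher miRNAs the log2 ratio to the control was between -0.78 and 0.05 for ID8 and between -3.06 and -1.52 for CT-26. For the 11 lower ones it was between -0.25 and 0.71 for ID8 and between 0.97 and 1.81 for CT-26. The ID8 level was thus nearer to the control than the CT-26 level for 15 of 15, against 102 of the 143 miRNAs short of 2-fold that were measured on all 3 arrays (71.3%). Both ratios share the control array, and since its culture is not described, co-culture and culture conditions cannot be told apart in them. The 40 spots that the file names Hy3, taken here as marker spots, also differed little between the ID8 and control arrays, by 0.0473% to 0.112% in raw intensity, against -11.8% to 47.7% between the ID8 and CT-26 arrays. Their part in these ratios was not tested.

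Among the 16 miRNAs at 50 units on 1 array only, 15 were above it in the ID8 co-culture and 1 in the CT-26 co-culture. The floor is set on unscaled intensity, and the ID8 array was the brighter one by 0.25 on the log2 scale. For 6 of the 15 the bound was under 1-fold, so they give no direction. The fold of the others is a bound, set against the lowest level measured on the dim array. miR-206, a muscle miRNA with the same seed as miR-1, read 122.75 units in the ID8 co-culture, 40.5 in the CT-26 co-culture and 121 in the control, at least 2.07-fold higher, whereas miR-1 itself was lower. miR-509-5p read 1.75 units in the ID8 co-culture, 97.25 in the CT-26 co-culture and 0.5 in the control, at least 2.31-fold lower. Both probes lie in array row 7, where miR-509-5p went against the direction of its neighbours. The bounds of the other 8 did not reach 2-fold. At the edge of the rule, let-7d* (73.5 and 50 units in the ID8 and CT-26 co-cultures) and miR-320 (52.25 and 71.25) fell just inside, and miR-24 (58 and 46.25), miR-150 (64.25 and 45.5) and miR-20b (47.25 and 44.5) just outside.

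Short of 2-fold, the highest ratios above the lowest 25% of levels were those of miR-207 (0.86), miR-770-3p (0.74), miR-574-3p (0.69), miR-466d-5p (0.67), miR-466a-5p (0.56) and miR-142-3p (0.54), followed by miR-713 (0.52), miR-297c (0.51), miR-99b* (0.49) and miR-300* (0.47). Of these 10, 7 lie in array row 7, the exceptions being miR-466d-5p, miR-466a-5p and miR-99b*. The lowest were miR-883b-5p (-0.92), miR-695 (-0.85), miR-142-5p (-0.83), miR-652 (-0.77), miR-361 (-0.61), miR-720 (-0.59), miR-710 (-0.44), miR-341 (-0.43), miR-685 (-0.41) and miR-673-3p (-0.40). The brightest miRNAs other than miR-483 were all within 1.5-fold. They were miR-551b (0.03), miR-693-5p (0.13), miR-138* (-0.02), miR-667 (0.04), miR-582-3p (0.03), miR-327 (-0.09), miR-503* (-0.21), miR-382* (-0.32) and miR-883a-5p (-0.40).

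The myeloid list, which marks the cells the labels name, had a similar summed level in both co-cultures. Its 13 members summed to 10.7 in the ID8 co-culture, 11.2 in the CT-26 co-culture and 5.44 in the control. Of its 11 measured miRNAs, 7 had a log2 ratio above 0 (over all 175 miRNAs the share was 49.1%), none passed 2-fold and the median was 0.03. The log2 ratios ran from -0.83 for miR-142-5p to 0.54 for miR-142-3p, with miR-27a at -0.48. With scaling to the members' median or to the U6 probe 2 of the 11 were above 0, against 54 and 46 of all 175 miRNAs. miR-22, abundant in myeloid cells, stood at 1.77 in the ID8 co-culture, 1.70 in the CT-26 co-culture and 0.362 in the control. miR-155, which Toll-like receptor stimulation induces, stood at 0.649, 0.601 and 0.152 on the same arrays, and miR-223, a defining miRNA of myeloid cells, at 0.306, 0.374 and 0.151. These 3 lay above the control in both co-cultures, although miR-155 and miR-223 read 49.5 and 49 units in the control, just under the floor. miR-142-3p did not lie above the control in both, at 1.03 in the ID8 co-culture, 0.706 in the CT-26 co-culture and 0.938 in the control. Its probe lies in array row 7, and its ratio of ID8 over CT-26 was 0.04 after subtraction of the row median. Its log2 ratio of CT-26 to the control was -0.41, where the median of mouse probes in that row was -0.78.

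The inflammatory list gave 7 of 8 measured miRNAs above 0 with a median of 0.09 and none past 2-fold. Over all 175 miRNAs 86 were above 0 at the deposited scaling. The direction rests on the scaling, which moves all miRNAs together. With scaling to the members' median 3 of the 8 were above 0 (median -0.05), against 54 of all 175. With scaling to the U6 probe 3 of the 8 were (median -0.11), against 46 of all 175. With no scaling 8 of 8 were, against 131 of all 175. The list ran from miR-147 at -0.22 to miR-146a, a brake on NF-kB signalling, at 0.38, with miR-21 at 0.07 and miR-125a-5p at 0.29. The let-7 family, whose members share the seed GAGGUAG, had 4 of 7 above 0 and a median of 0.07, from let-7i at -0.32 to let-7d at 0.32. The miR-15/16 family, which restrains Bcl2 and cell cycle genes, had 3 of 7 above 0 and a median of -0.04, with miR-16 at -0.04, miR-503 at -0.22 and miR-322 at 0.43. Neither family had a member past 2-fold. For let-7d, let-7f and let-7g, another probe of the same name was under the floor in both co-cultures. With no scaling 6 of the 7 let-7 miRNAs and 7 of the 7 in the miR-15/16 family were above 0, against 131 of all 175. With scaling to the U6 probe 2 and 3 were, against 46 of all 175.

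All 5 measured miRNAs of the growth-promoting miR-17-92 cluster and its paralogs were below 0, with a median of -0.24 (over all 175 miRNAs, 50.9% were below 0). They were miR-93 (-0.56), miR-106b (-0.33), miR-18a (-0.24), miR-17 (-0.12) and miR-20a (-0.08), none of them past 2-fold. The sign rests on the scaling, which moves all miRNAs together. With no scaling 3 of the 5 were above 0 (median 0.01), against 131 of all 175 miRNAs (median 0.24). With scaling to SNORD3@ 1 of the 5 was (median -0.14), against 110 of all 175 (median 0.09). With quantile scaling 1 of the 5 was (median -0.19), against 89 of all 175 (median 0.01). The other 8 miRNAs of the list were not measured in both co-cultures.

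In the p53-responsive list 2 of 7 were above 0, with a median of -0.04. In the hypoxia-responsive list 2 of 4 were, with a median of -0.61. Over all 175 miRNAs 49.1% were above 0 and 8.57% were past 2-fold. The members past 2-fold were miR-194 and miR-107 in the first and miR-103 and miR-107 in the second. miR-107 is thus counted in both lists, and it is not separate evidence from miR-103. miR-194 was near the floor in the ID8 co-culture. miR-26a, of the hypoxia-responsive list, lies in array row 7, at 0.20 before and -0.31 after subtraction of the row median. miR-34a, the best known p53 target among miRNAs, had a log2 ratio of 0.01, and miR-210, the most general hypoxia-induced miRNA, was under the floor at 39.5 units in the ID8 co-culture and 37.75 in the CT-26 co-culture.

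Markers of other cells were mostly under the floor. Of 10 epithelial miRNAs, whose list matters because both tumour lines are epithelial, 8 were under 50 units in both co-cultures and did not pass 16.5 units there. The 2 measured were miR-194 (-2.06) and miR-200b (0.29), and the list summed to 0.635 in the ID8 co-culture, 1.00 in the CT-26 co-culture and 0.786 in the control. miR-200a, miR-141 and miR-429 read 1.75, 6 and 0.25 units in the ID8 co-culture and 1, 7.75 and -0.5 units in the CT-26 co-culture. The part of epithelial RNA in the ratio of miR-194 was not tested. The 5 lymphoid markers summed to 0.245, 0.210 and 0.290 in the ID8 co-culture, the CT-26 co-culture and the control, and none was measured in both co-cultures. The 3 erythroid and megakaryocyte markers summed to 0.303, 0.283 and 0.426, with miR-451 at a log2 ratio of -0.01, and the 8 mesenchymal markers to 1.16, 1.09 and 1.41, with miR-214 at 0.00.

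Of the 2 large imprinted clusters, Dlk1-Dio3 had 12 of 54 miRNAs measured, 8 above 0, with a median of 0.03 and miR-337-3p as the 1 lower past 2-fold. With scaling to the U6 probe 3 of the 12 were above 0 (median -0.17), against 46 of all 175 miRNAs (median -0.20). The Sfmbt2 cluster, a rodent repeat cluster, had 17 of 22 measured, 13 above 0, with a median of 0.10 and miR-466b-5p as the 1 higher past 2-fold. With scaling to the members' median 8 of the 17 were above 0 (median -0.04), with scaling to the U6 probe 6 were (median -0.10), and with no scaling 16 were. Over all 175 miRNAs the counts above 0 at these settings were 54, 46 and 131, and 86 at the deposited scaling. Within the miR-466 family, grouped after the values were seen, the 5p arms were all above 0, at 0.56 (miR-466a-5p), 1.41 (miR-466b-5p), 0.35 (miR-466c-5p), 0.67 (miR-466d-5p), 0.47 (miR-466e-5p) and 0.19 (miR-466f-5p). The median of these 6 was 0.51, and it was 0.47 over the 5 that lie outside array row 7. With scaling to the U6 probe 5 of the 6 were above 0. The 4 measured 3p arm probes of the family had a median of 0.01, between -0.24 and 0.13. These strands are near-identical repeats, so their probes may share signal and are not separate evidence.

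Both arms of a precursor come from 1 hairpin, and 19 precursors had both measured. Their log2 ratios differed by a median of 0.63, between 0.005 and 1.60, and were opposite in sign in 9 precursors. The difference passed 1 on the log2 scale in 4. These were miR-574 (2.28 for 5p and 0.69 for 3p), miR-142 (-0.83 for 5p and 0.54 for 3p), miR-21 (-1.30 for miR-21* and 0.07 for miR-21) and miR-290 (-1.30 for 5p and -0.04 for 3p). The miR-142 hairpin is specific to blood cells, and its 3p probe lies in array row 7. After subtraction of row medians its arms differed by 0.87, leaving 3 precursors past 1. Between those and the closest pairs lay miR-300 (0.47 for miR-300*, in array row 7, and -0.47 for miR-300), miR-106b (0.44 for miR-106b* and -0.33) and miR-34c (0.43 and -0.21 for miR-34c*). The gap was 1.60 for miR-574, 1.38 for miR-142, 1.37 for miR-21 and 1.26 for miR-290. The arms of miR-503 (-0.22 and -0.21 for miR-503*), let-7d (0.31 for let-7d* and 0.32) and miR-22 (0.19 for miR-22* and 0.05) lay close together. The 34 passenger strands had a median of 0.10, with 0 higher and 1 lower past 2-fold, and the 141 other names a median of -0.01, with 4 and 10.

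Seed families and genome neighbours add small groups. The 4 measured strands with the seed AAAGUGC, miR-106b, miR-17, miR-20a and miR-93, had a median of -0.22, and the 6 with the seed AGCAGCA had a median of 0.12, 3 above and 3 below 0. miR-99b*, let-7e and miR-125a-5p, neighbours on chromosome 17, lay between 0.20 and 0.49. miR-883a-5p, miR-883b-3p and miR-883b-5p, neighbours on chromosome X, lay between -0.92 and -0.26. Some other neighbour groups held 1 sign, such as miR-17, miR-17*, miR-18a and miR-20a, between -0.24 and -0.05. Others held both signs. miR-337-3p and miR-433* had -1.06 and 0.12, and miR-27a and miR-24-2* had -0.48 and 0.51. miR-93, miR-106b* and miR-106b lay between -0.56 and 0.44, and miR-351, miR-503*, miR-503 and miR-322 between -0.22 and 0.43. Where 1 name had 2 probes, the probes did not always give the same ratio. Those of miR-185 gave 0.68 at 9136 and 4786.75 units in the ID8 and CT-26 co-cultures and -0.05 at 97.25 and 84.5 units. Those of let-7i gave -0.59 and -0.05. For let-7g, let-7f, let-7d and miR-138, only 1 probe passed the floor and another of the same name did not. In the ID8 and CT-26 co-cultures let-7g read 2046 and 1871.25 units on 1 probe and 3.75 and 4.5 on the other. let-7f read 1720.25 and 1378 units against -3 and -2, and let-7d 172.5 and 116 against 4.5 and 8.75. miR-138 read 159 and 97.75 units against 3.25 and 3.75.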

How the data were processed

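Total RNA of each culture was labelled with the Hy3 dye and read on a 1-colour miRNA array, per the labels. Per the file headers, the deposited table holds raw, corrected and normalized intensity for 1408 probes on 3 arrays, and the series matrix repeats the normalized values with a largest difference of 0, so its scale is linear. From the values, normalized intensity is the authors' corrected intensity divided by 398.25 (ID8), 335.25 (CT-26) or 325 (control), each the median of the 159 mouse probes at 50 units on all 3 arrays, so the deposited scaling involves the control array. The direction, ID8 over CT-26, comes from the column names; the table spells the line 1D8 and the labels ID8. The median local background was 49.5 units (ID8), 48.25 (CT-26) and 57.75 (control), the brightest empty spot reached 1.75, 2.25 and 6 units, and the brightest of 8 negative control probes 48.5, 52 and 59 units.

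Computed here were log2 ratios of probes at 50 units on both arrays, averaged over probes of 1 name. A miRNA was counted at 2-fold. Bounds set the brighter level against the lowest level at the floor on the dim array. Named were all miRNAs past 2-fold, bounds past 2-fold, the 10 nearest to 2-fold each way above the lowest 25% of levels, the 10 brightest, members of 22 lists, arm partners and neighbours within 10 kb, shared seeds, and the probes nearest the floor; of the lists, examples are given. The members and lists were chosen with earlier results of these data known. Older names were matched to RefSeq (GRCm38.p6), and 118 of 175 had a mature sequence there (67.4%), so a check against base content was void and is not given. Alternatives were other scalings, background corrections, floors and thresholds, and 3 settings added after the data were seen. The calculation was tested on simulated data. Tools were Python 3.11.15 with pandas 2.3.3, numpy 2.4.6 and statsmodels 0.14.6 (loess), and limma 3.58.1 in R 4.3.3 (normexp).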

Additional observations from a re-analysis of the deposited data

Results flagged for a closer look

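Probes for miRNAs of a mouse herpesvirus (mghv) are outside the mouse comparison, and of those at 50 units in both co-cultures 4 read higher there than in the control. The fifth, mghv-miR-M1-7-5p, was lower in both, at 0.482 in the ID8 co-culture, 0.433 in the CT-26 co-culture and 0.604 in the control. mghv-miR-M1-4 stood at a level of 12.7 in the ID8 co-culture, 13.1 in the CT-26 co-culture and 10.2 in the control. mghv-miR-M1-3 stood at 4.90, 4.82 and 3.92 on the same arrays, mghv-miR-M1-8 at 1.76, 2.05 and 1.63, and mghv-miR-M1-6 at 0.483, 0.551 and 0.445. Of the 163 probes with no name at 50 units in both co-cultures, 74 stood above the control in both. Neither count was set against the same count over mouse miRNAs, so neither is known to be unusual. The viral and no-name values are single readings, and no cause was tested.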

How the results depend on the processing

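No paired analysis was possible because each group has 1 array and the labels give no replicate numbers. Leaving out a replicate was not possible for the same reason. There were 20 alternative settings, 17 planned and 3 added after the data were seen. Each of the 15 miRNAs past 2-fold was given a ratio in 14 to 17 of them, and the series matrix setting repeats the deposited values. None of the 15 turned its direction. Scaling by a constant moved log2 ratios by at most 0.25 and centring on array rows by at most 0.504. A log2 ratio past 1 could not change sign in those settings. Of the 15, 12 stayed past 2-fold in every setting that measured them. The exceptions were miR-1 (short in 5 settings), miR-337-3p (short in 3) and miR-466b-5p (short in 2, both centred on array rows, down to 0.91). Over the 17 settings that measured miR-1, its log2 ratio was between -1.25 and -0.77. Signal limits miR-194, miR-103, miR-107, miR-711 and miR-574-5p, which were under 100 units on at least 1 co-culture array and drop out at that floor.

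The counts at the deposited scaling were 4 higher and 11 lower. Without scaling they were 7 and 9, with a floor of 100 units 3 and 7, with a floor of 200 units 2 and 7, and with no floor, where 474 miRNAs enter, 34 and 32. At 1.5-fold they were 11 and 18, and at 4-fold 1 and 1. Outside array row 7 they were 0 and 11. Row-median centring gave 3 and 10, and centring on the probes with no name 3 and 11. In the remaining settings the higher count was 4 or 5 and the lower one between 9 and 14.

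The count of bounds past 2-fold was 1 higher and 1 lower. The higher one was 3 without scaling, 2 with scaling to SNORD3@ and 4 at 1.5-fold. It was 0 with scaling to the members' median without the control array, quantile scaling, scaling to U6, the 3 background settings (none subtracted, normexp, offset of 50), 4-fold, probes outside array row 7 and both row centrings. The lower one was 3 with a floor of 100 units, and 0 without scaling, in the 3 background settings, with a floor of 200 units, at 4-fold and outside array row 7. The causes were not tested. With no floor no bound is defined.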

Other observations

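The star strands of the epithelial miR-200c and miR-141 precursors, neighbours on chromosome 6, were measured in both co-cultures, with log2 ratios of 0.99 for miR-200c*, whose probe lies in array row 7, and 0.12 for miR-141*, although the probes for miR-200c (16.5 units in the ID8 co-culture and 10.25 in the CT-26 co-culture) and miR-141 (6 and 7.75 units) were under the floor. The star strand miR-200b*, also in array row 7, was brighter, at 382.75 units in the ID8 co-culture and 237.5 in the CT-26 co-culture (0.44). miR-200b itself was measured, at 141.5 and 97.25 units. miR-486, a miRNA of red cells, read 31 units in the ID8 co-culture, 20 in the CT-26 co-culture and 98.5 in the control. These miRNAs were picked after their values were seen.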
